A study of Rattus norvegicus with 3 samples.

Results

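A strong H3K4me3 peak without DLX3 is here a region of the deposited H3K4me3 peak list with a score of 1000 or more that shares not even 1 bp with any peak of the DLX3 list. There were 1270 such peaks among the 25094 H3K4me3 peaks, and 8600 peaks of the same score range did overlap DLX3. They were chosen by their H3K4me3 score and their lack of overlap with DLX3, and both measures are given below as descriptions without a test. The data are chromatin immunoprecipitation sequencing (ChIP-seq) of enamel organs dissected from the lower incisors of adult wildtype rats. There were 3 libraries in all, an input without antibody, a DLX3 ChIP and an H3K4me3 ChIP, and the peak lists of the 2 ChIP libraries were used here. With 1 library per antibody no value has a replicate, so no difference was tested, and peaks are not replicates of the tissue. The sample titles were followed for the antibodies; the labels' antibody field disagrees with them and gives DLX4 and H3K4me4.

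The enamel organ is the epithelium that forms tooth enamel, and the rodent incisor keeps growing, so that its ameloblasts, the cells that secrete enamel matrix, are found at all stages along the tooth. DLX3 is a homeodomain transcription factor of the distal-less family, known for its part in tooth, hair and bone, and it binds DNA at AT-rich homeobox sites. H3K4me3, the trimethylation of lysine 4 on histone H3, is deposited around the start sites of active and poised genes. A strong H3K4me3 peak without a called DLX3 peak is thus a region that carries the promoter mark in this tissue and where no DLX3 peak was called. Positions are in rn5 and count from 1. No rn5 annotation or sequence was used here, so whether a region is an annotated promoter, and which gene it belongs to, was not examined, and no sequence is shown.

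Strong H3K4me3 peaks seldom lacked DLX3. The 1270 peaks were 12.9% of the 9870 peaks scoring 1000 or more (95% Wilson interval 12.2 to 13.5%). Over the whole H3K4me3 list 36.1% of peaks overlapped no DLX3 peak, and below a score of 1000 the share was 51.2%. The intervals cover counting error only, and neighbouring peaks are not independent. The depth of the libraries is unknown, so a region without a called DLX3 peak may hold DLX3 signal below the peak caller's limit. The share also depends on which DLX3 peaks are counted: with only those scoring 100 or more, 32.7% of strong H3K4me3 peaks (3223) had none.

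The peaks without DLX3 lay mostly at the lower end of the strong range. Their median score was 1589 (quartiles 1270 and 2062), against 2378 (quartiles 1696 and 3100) for strong peaks with DLX3. Scores from 1000 to under 1500 held 561 of the 1270 peaks, and in that class 27.3% of peaks lacked DLX3 (Wilson interval 25.4 to 29.2%). The share was 17.9% at scores from 1500 to under 2000, 10.9% from 2000 to under 2500 and 7.02% from 2500 to under 3100. Among the 2454 peaks at exactly 3100, a score that many peaks share, 55 lacked DLX3, or 2.24% (1.73 to 2.91%). Scores over 3100 did not continue this order, because 15 of 276 such peaks lacked DLX3, or 5.43% (3.32 to 8.77%). The intervals of the last 2 classes do not overlap. Whether a score over 3100 marks a stronger or a weaker peak than exactly 3100 is not known, so the order of these 2 classes is open.

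Regions on either side of the 2 limits that set the group are given here by position. The 3 lowest-scoring peaks without DLX3 lay on chromosome 4 (247780789 to 247782272, score 1003), chromosome 19 (63265215 to 63267175, score 1004) and chromosome X (32536241 to 32537664, score 1006). Their nearest DLX3 peaks were 31518, 20624 and 178733 bp away. The 3 peaks just below the limit lay on chromosome 17 (86555881 to 86557797, score 998.9), chromosome X (76881361 to 76883189, score 998.2) and chromosome 7 (116605001 to 116607345, score 994.5). For these the nearest DLX3 peaks were 1232, 287454 and 22211 bp away. At the other edge of the choice, the 5 strong peaks with the smallest overlap shared 15, 30, 55, 82 and 93 bp with DLX3. The smallest was on chromosome 10 (110169843 to 110172050), the next on chromosome 3 (87539504 to 87542423) and chromosome 7 (123459505 to 123461710), and the last 2 on chromosome 3 (14009696 to 14013150) and, at 93 bp, on chromosome 7 (119399647 to 119402572). For comparison, the median largest overlap of strong peaks with DLX3 was 1629 bp, or 65.6% of the peak's width. How often such small overlaps occurred was not counted.

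The peaks without DLX3 were narrower than the strong peaks with it. Their median width was 2174 bp (quartiles 1753 and 2757 bp, 95% order-statistic interval of the median 2112 to 2231 bp). Strong peaks with DLX3 had a median of 2596 bp (quartiles 2017 and 3461 bp, interval 2570 to 2623 bp). Of strong peaks under 1500 bp wide, 22.0% lacked DLX3 (Wilson interval 19.2 to 25.2%), and of those 4000 bp or wider 5.32% did (4.297 to 6.58%). A wider region also offers more bases to be overlapped, and the part of this in the difference was not tested.

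**Figure D1:**
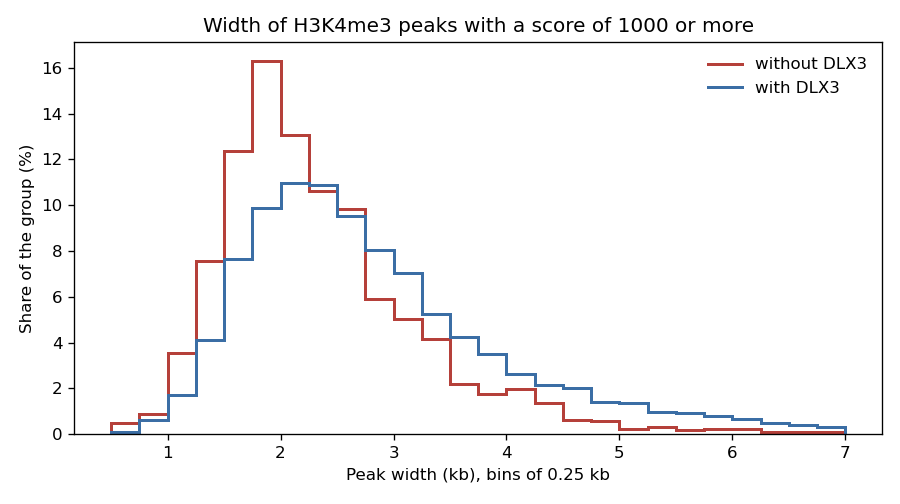
Share of each group (vertical axis, percent) by peak width (horizontal axis, kb, bins of 0.25 kb) for H3K4me3 peaks scoring at least 1000, without DLX3 (red) and with DLX3 (blue). The red outline lies to the left of the blue one, with medians of 2174 and 2596 bp; peaks of 7 kb or more, 5 without and 220 with DLX3, are not drawn.

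Up to a score of 2500, wider peaks lacked DLX3 less often within each score class, and up to 3100 higher-scoring peaks did so within each class of width. At scores from 1000 to under 1500, 33.0% of peaks under 2000 bp lacked DLX3, 25.5% of those from 2000 to under 3000 bp, and 20.04% of those of 3000 bp or more. The Wilson intervals of the narrowest and widest of these classes, 29.9 to 36.3% and 16.7 to 23.9%, do not overlap. Among peaks under 2000 bp the share was 20.8% at scores from 1500 to under 2000, 14.7% from 2000 to under 2500, 8.84% from 2500 to under 3100, and 2.82% at exactly 3100. At scores from 2500 to under 3100 the classes of width gave 8.84%, 6.60% and 6.32%, with overlapping intervals. At exactly 3100 they gave 2.82%, 2.95% and 1.66%, and over 3100 they gave 1.85%, 8.11% and 4.50%, from 1, 9 and 5 peaks without DLX3, so no order of width was resolved at the top of the range. Within each score class the peaks without DLX3 had the smaller median width, from 2038 against 2271 bp in the lowest class to 2668 against 3129 bp at exactly 3100 and 2593 against 2727 bp above it.

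**Figure D2:**
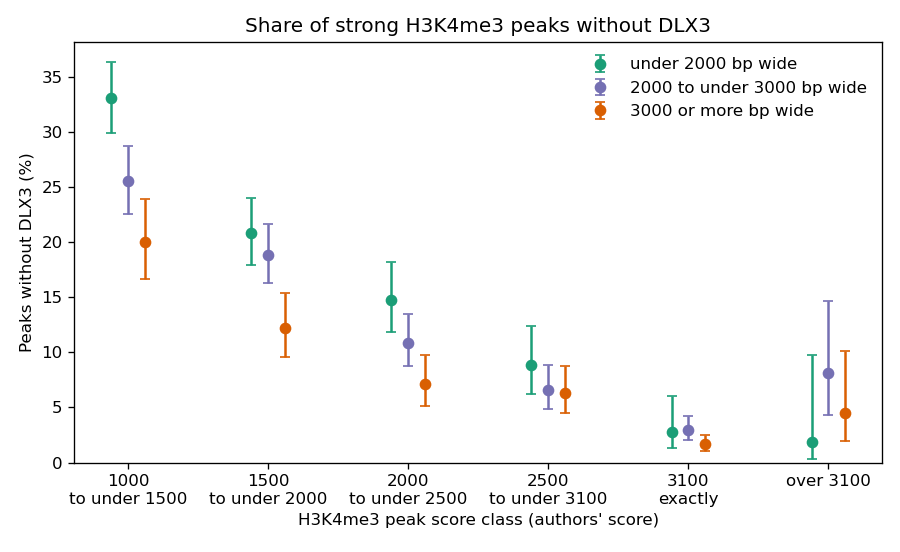
Percent of strong H3K4me3 peaks without DLX3 (vertical axis) in 6 classes of H3K4me3 score (horizontal axis), for 3 classes of width (colours); points are shares and bars are 95% Wilson intervals. The share falls from 33.0% in narrow peaks of the lowest score class to under 3% at a score of exactly 3100. Over 3100 it is 1.85%, 8.11% and 4.50% from the narrowest to the widest class, from 1, 9 and 5 peaks.

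The 10 highest-scoring peaks without DLX3 show how differently these regions are placed. Those tied at the highest score, 3233, lay on chromosome 9 (37460689 to 37463281, 2593 bp wide) and chromosome 3 (163094158 to 163095942, 1785 bp wide). The chromosome 9 region was 4274 bp from a DLX3 peak with a score of 1277, and the chromosome 3 region was 143 bp from a DLX3 peak with a score of 126.2. The region on chromosome 20 (11440478 to 11444127, score 3230) lay 8007 bp from DLX3, and that on chromosome 3 (118092044 to 118095411, score 3210) 26895 bp. Next came regions on chromosome 9 (93333885 to 93336037, score 3203), chromosome 1 (37716136 to 37718644, score 3186), chromosome 17 (78065709 to 78067881, score 3179) and chromosome 13 (94424055 to 94427231, score 3178). In that order their nearest DLX3 peaks were 4202, 5546, 20769 and 3665 bp away. The region on chromosome 6 (76659132 to 76661841, score 3162) stood alone: no DLX3 peak lay within 193351 bp and no other H3K4me3 peak within 459073 bp. The last, on chromosome 10 (69368364 to 69372390, score 3144), was 56358 bp from DLX3. All 10 scored over 3100, a range with no known meaning beyond 3100 itself. They need not be the strongest of the group, and the 55 peaks without DLX3 at exactly 3100 are not among them.

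The widest and the narrowest peaks without DLX3 are named here with their distance to DLX3. The widest spanned 8803 bp of chromosome 10 (55738018 to 55746820). It was followed by regions on chromosome 3 (170424445 to 170432605, 8161 bp), chromosome 12 (49010511 to 49017720, 7210 bp), chromosome 14 (3058746 to 3065858, 7113 bp) and chromosome 20 (5893133 to 5900155, 7023 bp). DLX3 peaks lay close to 4 of these 5, and in the order given the distances were 45, 340, 2321, 15024 and 3155 bp. The chromosome 20 region adjoined another H3K4me3 peak, 5 bp away, which did overlap DLX3. The narrowest spanned 566 bp of chromosome 13 (52912068 to 52912633). Next came regions on chromosome 7 (15947588 to 15948170, 583 bp), chromosome 8 (19945744 to 19946377, 634 bp) and chromosome 1 (3769987 to 3770644, 658 bp, and 79209104 to 79209819, 716 bp). Their DLX3 distances were 40354, 87719, 1511642, 7764 and 907 bp.

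To compare surroundings at like width, each of the 1270 peaks was paired with the strong peak with DLX3 closest to it in width, each used once. Widths were equal in 1018 pairs and differed by at most 45 bp. In the partners a DLX3 peak that overlaps the H3K4me3 peak was set aside, and the nearest DLX3 peak outside it was taken. Distances thus run from the H3K4me3 edge in both groups, but a DLX3 peak set aside can reach past that edge. Such a peak takes up part of the flank in partners only, and its effect on the distances was not tested. Partners had a median score of 1868, above the 1589 of the peaks without DLX3, and 93.5% of them held a single DLX3 peak. Partners matched on both width and score are given beside the results where they bear on them. The pairs describe these 2 lists and carry no test.

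Peaks without DLX3 lay somewhat farther from the next DLX3 peak than their partners did. The median distance was 11131 bp (quartiles 4688 and 28929 bp, order-statistic interval 9964 to 12163 bp), against 9016 bp (quartiles 3471 and 21604 bp, interval 8361 to 9859 bp) in partners. The peak without DLX3 was the farther one in 715 of 1270 pairs, or 56.3% (Wilson interval 53.6 to 59.0%). With 1266 partners matched on width and score the medians were 11131 and 9144 bp, and the share of pairs was 54.6% (51.8 to 57.3%). The difference was small beside the spread within either group. A DLX3 peak lay within 5 kb of 26.8% of the peaks without DLX3 (24.4 to 29.3%) and of 34.2% of partners (31.6 to 36.8%). Within 1 kb the shares were 6.61% (5.37 to 8.12%) and 7.24% (5.94 to 8.80%), which counting error does not separate. DLX3 peaks on both sides within 10 kb were found for 143 peaks without DLX3 and 197 partners, 11.3% (9.64 to 13.1%) against 15.5% (13.6 to 17.6%).

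**Figure D3:**
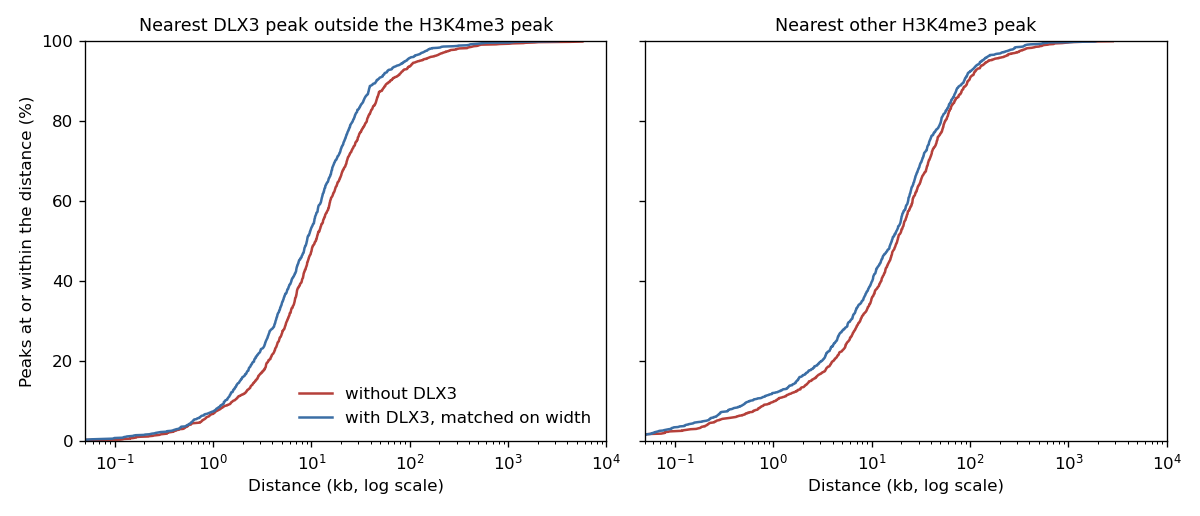
Percent of peaks (vertical axis) at or within a given distance (horizontal axis, kb, log scale) of the nearest DLX3 peak outside the H3K4me3 peak (left) and of the nearest other H3K4me3 peak (right), for the 1270 peaks without DLX3 (red) and their partners of like width with DLX3 (blue). The red curves lie slightly to the right of the blue ones, with medians of 11131 against 9016 bp on the left and 18181 against 15995 bp on the right.

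The DLX3 peaks nearest to these regions and those next to the partners had like scores and widths. Their median score was 90.1 (quartiles 65.3 and 150.0), against 89.1 (quartiles 63.0 and 154.5), and their median width 996 against 974 bp. Of the nearest DLX3 peaks, 38.8% (36.2 to 41.5%) lay on another H3K4me3 peak in the group without DLX3 and 37.4% (34.8 to 40.1%) in partners. These intervals overlap, as do those of the medians. The highest-scoring DLX3 peak inside each partner had a median score of 143.8.

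Counted in steps outward from the edge of the H3K4me3 peak, DLX3 peaks were fewer around regions without DLX3 at every step up to 100 kb. From 1 to 2 kb there were 66 DLX3 peaks around the peaks without DLX3 and 127 around partners, a ratio of 0.520. The ratio was 0.755 from 2 to 5 kb, 0.862 from 5 to 10 kb, 0.825 from 10 to 20 kb, 0.874 from 20 to 50 kb and 0.909 from 50 to 100 kb. In the first 1 kb it was 0.926, from 88 and 95 DLX3 peaks. A second set of 1264 partners, chosen after seeing the data by the same matching with the first set left out, gave 0.730 in the first 1 kb and 0.650 from 1 to 2 kb. Partners of like width and score gave 0.906 and 0.537 in these steps. In the innermost steps the counts are small and the ratio moved with the choice of partners, whereas from 10 to 50 kb it lay between 0.825 and 0.885 in all 3 sets. DLX3 peaks that overlap a partner were left out of these counts and can fill its near flank, so the innermost ratios may lie too high. H3K4me3 peaks were also fewer close by, with ratios of 0.752 to 0.821 in the first 1 kb over the 3 sets, but from 20 to 100 kb their ratios lay between 0.982 and 1.05.

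**Figure D4:**
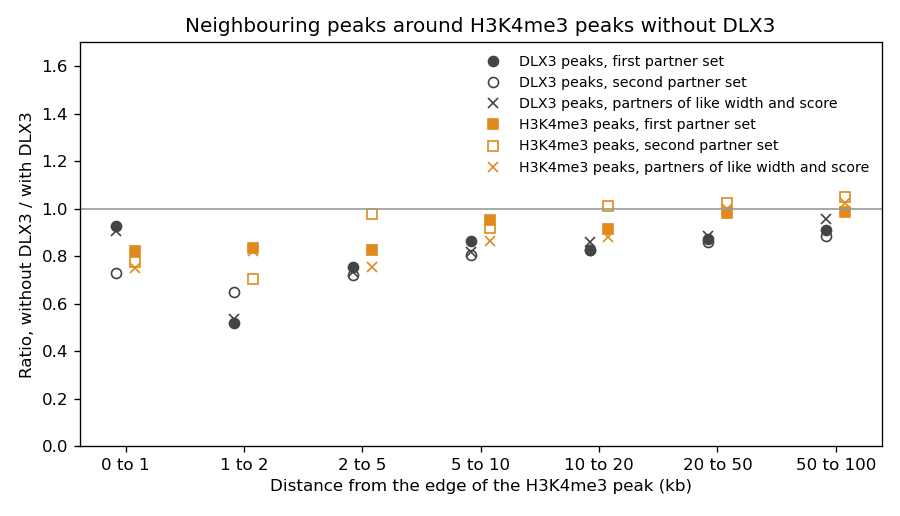
Ratio of the number of DLX3 peaks (black) or H3K4me3 peaks (orange) per peak without DLX3 to that per partner with DLX3 (vertical axis) in steps of distance from the edge of the H3K4me3 peak (horizontal axis, kb). Filled symbols are the first set of partners, open symbols the second, and crosses partners matched on width and score; the DLX3 ratios are below 1 in every step, lowest at 0.520 from 1 to 2 kb, and the H3K4me3 ratios are near 1 beyond 20 kb.

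Fewer DLX3 peaks also lay within 100 kb of the centre of peaks without DLX3 in somewhat over 50% of the pairs that differed. The median was 8 DLX3 peaks (quartiles 4 and 14) against 9 (quartiles 5 and 16) in partners, and the peak without DLX3 had fewer in 662 pairs, more in 553 and as many in 55. The 662 are 52.1% of all pairs and 54.5% of the 1215 pairs that differed (Wilson interval 51.7 to 57.3%). With a score limit of 2000 the counts were 168 fewer and 164 more, with 17 equal, or 50.6% (45.2 to 55.9%) of the pairs that differed. No DLX3 peak centre lay within 100 kb of 82 peaks without DLX3, or 6.46% (5.23 to 7.94%), against 55 partners, or 4.33% (3.34 to 5.59%). The number of H3K4me3 peaks in the same window had a median of 4 in both groups.

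Width went with these surroundings inside the group as well. Over the 1270 peaks without DLX3, Spearman's rho of width was -0.23 with the distance to DLX3 and 0.30 with the number of DLX3 peaks within 100 kb. In the 8600 strong peaks with DLX3 the same values were -0.33 and 0.37. These are descriptions across regions of 2 libraries. Distances run from the edges of a peak, which lie farther out in a wider peak, whereas the count within 100 kb is taken from centres. The part of this in the values was not tested. In the 318 narrowest, 566 to 1752 bp, the median distance to DLX3 was 17208 bp, against 14663 bp in partners of these widths. In the 319 widest, 2757 to 8803 bp, it was 6708 against 4514 bp. The H3K4me3 score hardly went with the distance to DLX3 within the group, at a rho of 0.025.

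The regions nearest to DLX3 without touching it, and those farthest away, mark the ends of this range. On chromosome 7 (120488307 to 120490292) only 2 bp separated the H3K4me3 peak from a DLX3 peak with a score of 80.4. After the widest region, already described at 45 bp, the next lay on chromosome 6 (35962102 to 35963425, 114 bp), chromosome 14 (38383620 to 38386446, 121 bp) and chromosome 15 (23303272 to 23305617, 122 bp). Each of these 3 also had another H3K4me3 peak with DLX3 within 220 bp. At the far end, 3 regions on chromosome 18 (86660179 to 86661611, 86611792 to 86613706 and 85109691 to 85111131) lay 5812946, 5764559 and 4262458 bp beyond the last DLX3 peak of that chromosome. A region on chromosome 14 (48890711 to 48892029) was 2036375 bp away and a wide one of 6169 bp on chromosome 15 (71178844 to 71185012) 1861366 bp. Their H3K4me3 scores were 1305, 1754, 2001, 1625 and 1040, so that strong peaks of the mark were called where no DLX3 peak was called over megabases. Distances over 100 kb were found for 80 peaks without DLX3 (6.30%, interval 5.09 to 7.77%) and 54 partners (4.25%, 3.27 to 5.51%).

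Peaks without DLX3 also lay somewhat farther from the next H3K4me3 peak, most clearly beside partners of like score. The median was 18181 bp (quartiles 5860 and 45968 bp, order-statistic interval 16233 to 20042 bp) for peaks without DLX3 and 15995 bp (quartiles 4424 and 38657 bp, interval 14076 to 18123 bp) for partners. The peak without DLX3 was the more isolated one in 675 of 1270 pairs, or 53.1% (Wilson interval 50.4 to 55.9%). With partners matched on width and score the medians were 18196 bp (16294 to 20073 bp) and 13798 bp (12136 to 15904 bp), whose intervals do not overlap, and the share was 55.6% (52.9 to 58.3%). With a score limit of 2000 the share was 54.2% (48.9 to 59.3%), which includes 50%. Another H3K4me3 peak lay within 5 kb of 22.4% (20.2 to 24.8%) and 27.4% (25.02 to 29.9%). The most isolated regions were the chromosome 15 region above, 2821780 bp from any other, and regions on chromosome 8 (19945744 to 19946377, 1511106 bp), chromosome 2 (212880594 to 212882657, 1340754 bp) and chromosome 14 (48890711 to 48892029, 1040011 bp, and 75842983 to 75845737, 994845 bp). The last of these had a DLX3 peak 13204 bp away, while the other 4 had none within 1 Mb.

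With the limits used here, the shares of peaks whose neighbour lacked DLX3 had overlapping intervals in the 2 groups, and other limits gave larger differences. The nearest other H3K4me3 peak, of any score, also lacked DLX3 for 504 of the 1270, or 39.7% (37.0 to 42.4%), and for 38.1% of partners (35.5 to 40.8%). Over all H3K4me3 peaks this share was 36.3%, and over those scoring at least 1000 it was 36.0%. With a score limit of 500 the shares were 43.6% (41.5 to 45.6%) and 38.8% in partners, and with only DLX3 peaks scoring 100 or more 60.8% (59.1 to 62.4%) and 54.2%. Counting DLX3 within 1 kb as overlap gave 38.2% (35.5 to 40.99%) and 28.8%. Here 1 DLX3 peak can count for both a partner and its close neighbour, and the part of this in the difference was not tested. Where the neighbour was itself strong, 75 of 552 lacked DLX3, or 13.6% (10.98 to 16.7%), against 14.4% (11.6 to 17.6%) in partners. Where it scored below 1000 the shares were 59.7% (56.1 to 63.3%) and 55.1% (51.5 to 58.6%). Of the 123 peaks without DLX3 that had another H3K4me3 peak within 1 kb, 56 had a neighbour without DLX3, or 45.5% (36.996 to 54.3%), against 82 of 151 partners, or 54.3% (46.4 to 62.0%). These 3 pairs of intervals overlap, and the differences do not all go the same way.

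Reading strong H3K4me3 peaks in order along the chromosomes, most of those without DLX3 stood singly. Peaks that make up 12.9% of the strong peaks would mostly do so wherever they lay, so this is not a trait of the group. Of the 1270, 917 had a strong peak with DLX3 or a chromosome end of the list on both sides, and 353 fell into 164 runs of 2 or more. The next strong peak along the chromosome lacked DLX3 after 14.9% (13.1 to 17.0%) of peaks without DLX3 and after 12.5% (11.9 to 13.3%) of those with it. These 2 intervals overlap slightly. The longest runs held 4. On chromosome 3 (155078724 to 155325271) all 7 H3K4me3 peaks in 246.5 kb lacked DLX3, although 10 DLX3 peaks lay in that span. On chromosome 10 (36093450 to 36360070) 6 of 7 H3K4me3 peaks lacked DLX3 and 1 DLX3 peak lay in the span. The run on chromosome X (84010911 to 104562832) was spread over 20552 kb, with 11 H3K4me3 and 6 DLX3 peaks. The next 2 in order, of 19 runs of 3, lay on chromosome 1: in 88822838 to 89134892, 6 of 8 H3K4me3 peaks lacked DLX3, and in 205313079 to 205392649 all 5 did.

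Autosomes held similar shares of strong peaks without DLX3, and X a higher one at the limits used here. On the autosomes the share ran from 8.95% on chromosome 17 (28 of 313, Wilson interval 6.26 to 12.6%) to 15.9% on chromosome 20 (43 of 270, 12.04 to 20.8%), with 12.7% over all of them (12.1 to 13.4%). On X 42 of 222 lacked DLX3, or 18.9% (14.3 to 24.6%). The interval of X lies above that of all autosomes together but overlaps those of most single autosomes, chromosome 20 included. X held 3.31% of the peaks without DLX3 (2.46 to 4.44%) and 2.09% of strong peaks with it, or 2.29% when these were weighted to the same widths in 10 classes. With only DLX3 peaks scoring 100 or more counted, X held 2.54% of the peaks without DLX3 (2.05 to 3.15%) against a weighted 2.36%, so the excess was no longer resolved. With a score limit of 2000 the value was 0.287% (1 of 349, 0.0506 to 1.60%) against a weighted 1.22%, which lies within that interval. X also holds few DLX3 peaks, 716 of 69263.

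**Figure D5:**
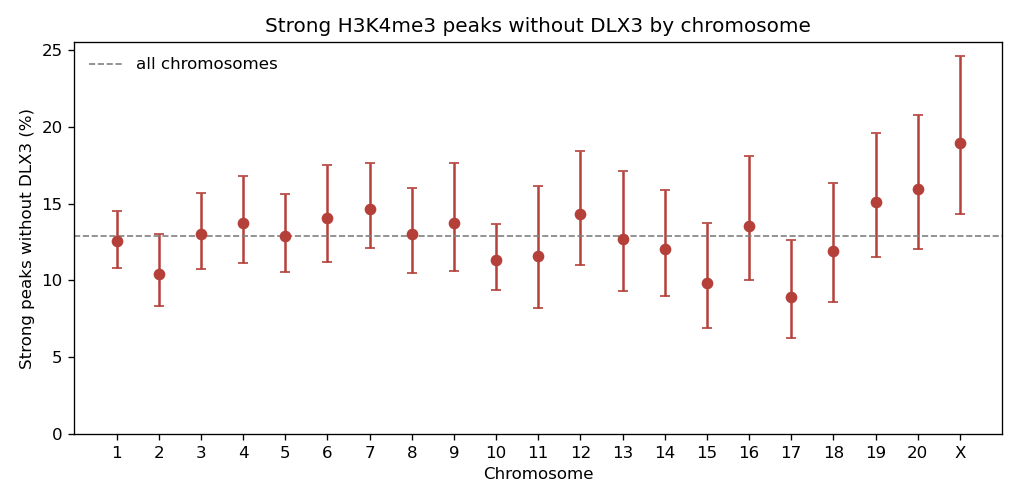
Percent of strong H3K4me3 peaks without DLX3 (vertical axis) on each chromosome (horizontal axis); points are shares, bars 95% Wilson intervals, and the dashed line the 12.9% over all chromosomes. X is highest at 18.9%, and chromosome 17 lowest at 8.95%.

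By width, the intervals of X and the autosomes were separate only in narrow peaks. Among strong peaks under 2000 bp, 27 of 79 on X lacked DLX3, or 34.2% (24.7 to 45.2%), against 19.7% (18.2 to 21.3%) on the autosomes. From 2000 to under 3000 bp the shares were 12.6% (7.38 to 20.8%) and 12.9% (11.9 to 14.0%), and at 3000 bp or more 6.25% and 7.30%. Strong peaks on X also had lower scores, with a median of 1637 against 2269 on the autosomes. In narrow peaks with scores from 1000 to under 1500, 23 of 50 on X lacked DLX3, or 46.0% (33.0 to 59.6%), against 32.2% (29.0 to 35.5%), and these intervals overlap. From 1500 to under 2000 the narrow peaks went the other way, with 3 of 22 on X, or 13.6% (4.75 to 33.3%), against 21.1% (18.1 to 24.3%). At scores of 2000 or more, 1 of 73 peaks on X lacked DLX3, or 1.37% (0.242 to 7.36%), against 348 of 5727 on the autosomes, or 6.08% (5.49 to 6.73%). The part of score in the higher share on X cannot be resolved with so few peaks. The median distance from peaks without DLX3 to the nearest DLX3 peak was 47525 bp on X and 10622 bp on the autosomes, and in partners 31158 and 8859 bp.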

How the data were processed

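ChIP DNA and input from rat enamel organs were sequenced, and 1 peak list per ChIP library was used. The tools named in the submitters' processing notes are MACS 1.4.2, HOMER and Bowtie 1.1.2, and the build is rn5; roles, mapping filters, cutoffs and the use of the input as control are not given in the sources used here. Column 5 of each list is the authors' deposited score, with no stated unit, and it was used only to rank and split peaks within a list. No counts were used, so depth is unknown.

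Strong peaks (score 1000 or more) sharing no base with a DLX3 peak were found with Python 3.11.15, numpy 2.4.6, pandas 2.3.3 and scipy 1.17.1; bedtools 2.31.1 gave the same count. Distances are the bases between peak edges. Pairs were formed from the narrowest peak upward, within 10% of the width, ties going to the closest score. Counting and matching were tested on simulated lists. In these, overlapping DLX3 peaks lay wholly inside the H3K4me3 peak, so peaks reaching past its edge were not tried. Medians carry exact binomial order-statistic intervals and shares Wilson intervals at 95%.

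The group, the comparisons and the regions named (highest score, widest, narrowest, nearest, farthest, most isolated, at the limits, longest runs) were chosen with earlier results of these data known. The table of genes in hand is of another build and was not joined to these positions. Alternatives for the score limit, the overlap, joining of peaks, chromosome X and the matching are in the closing section.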

Additional observations from a re-analysis of the deposited data

How the results depend on the processing

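Comparisons of distance to DLX3 and to other H3K4me3 peaks kept their direction, with the share of pairs in which the peak without DLX3 was the farther at 54.6 to 57.7% and 52.4 to 55.6% over the 9 alternatives run, all within the interval of the reported value; at a score limit of 2000 the interval of the second comparison, 48.9 to 59.3%, included 50%. Among pairs that differed in DLX3 peaks within 100 kb, the peak without DLX3 had fewer in 50.6 to 57.1%, lowest at the limit of 2000, where alone the interval included 50%. With a score limit of 500 the share of peaks without DLX3 was 18.2%, their median width 2050 bp and the share with a neighbour without DLX3 43.6% (partners 38.8%). With a limit of 2000 these were 6.02%, 2393 bp and 42.7% (partners 36.4%), chromosome X held 0.287% against a weighted 1.22% of peaks with DLX3, and the share of all pairs, equal ones included, with fewer DLX3 peaks within 100 kb was 48.1% in place of 52.1%. Counting DLX3 within 1 kb as overlap gave a share of 12.02%, with neighbour shares of 38.2% and 28.8% in partners. Taking only DLX3 peaks with a score of 100 or more gave 32.7%, 2248 bp and 60.8% (partners 54.2%), so the size of the group depends on which DLX3 peaks are counted. A higher H3K4me3 score limit leaves fewer peaks by its own construction. The causes of the shifts in shares and widths were not tested. Peaks without DLX3 were narrower than strong peaks with it under each of the 6 alternatives for width. No paired analysis was possible because each antibody has a single library; leaving 1 out would leave nothing to compare. Depth is unknown and limits what absence from the DLX3 list can show.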

Other observations

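Some long stretches of the genome without any DLX3 peak held strong peaks of the promoter mark. Of 357 stretches over 1 Mb without DLX3, 55 held at least 1 strong H3K4me3 peak, 59 peaks in all, among 448 H3K4me3 peaks of any score. That proportion is close to the 1270 strong peaks among all 9063 H3K4me3 peaks without DLX3. It is below the 9870 strong peaks among the 25094 of the whole list. The end of chromosome 18 (80847233 to 86661611) held 7 H3K4me3 peaks, 3 of them strong. A stretch of chromosome 1 (66568832 to 71238534) held 9, of which 2 were strong. The longest stretch with a strong peak was on chromosome X (84356447 to 101317110), with 6 H3K4me3 peaks, 1 of them strong. Longer ones on chromosome 4 (67788008 to 133268448, 65.5 Mb) and chromosome 2 (20508134 to 40708878, 20.2 Mb) held no H3K4me3 peak either. Whether such regions could be mapped is unknown. These stretches were chosen after seeing the data. Gaps in the rn5 sequence were not examined, so their lengths may include bases to which no read could map.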
